A study of Mus musculus with 12 samples.

Results

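The genes described are 36 mouse genes of the p53 response and of the response to damaged DNA. The choice was by name, with earlier results of these data known. All 36 had at least 10 reads in at least 3 libraries. They are 36 of the 48709 genes in the deposited count table, and all 36 were among the 17294 genes with enough reads to be tested. RNA was sequenced from pancreatic islets of female mice 1, 3 or 5 days after diphtheria toxin (DT), labelled DPA and read here as days post-ablation, and from untreated mice (CTRL), with 3 libraries in each of the 4 groups. All 4 groups were on the immunodeficient NSG background and carried 1 copy of the RIP-DTR transgene, in which the rat insulin promoter drives the diphtheria toxin receptor in beta cells. DT blocks protein synthesis in cells that take it up by inactivating elongation factor 2, and CTRL mice carried the receptor without receiving the toxin. The labels used here state no age. NSG mice also carry the scid mutation of Prkdc, which encodes the catalytic subunit of the DNA-dependent protein kinase used to rejoin broken DNA ends, so that limit applies to every group. The labels do not say whether the 3 libraries of a group are 3 animals, so the p-values rest on differences among libraries that could be technical.

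As background, p53 is a transcription factor that is kept scarce in unstressed cells because MDM2, itself a p53 target, marks it for destruction. Damaged DNA and other stresses stabilise the protein, which then raises genes that stop the cell cycle, repair DNA or kill the cell, together with genes that switch p53 off again. The control is largely at the level of protein, so the RNA of Trp53 does not report the activity of p53, and many of these genes also answer to other stress pathways.

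Library totals ran from 29867083 to 50012558 counts, and levels are given as CPM, counts scaled to library size by TMM. All 8 beta cell markers were detected in every library, with a summed level of 182000 to 202000 CPM in CTRL, 105000 to 162000 CPM at 1 DPA, 150000 to 187000 CPM at 3 DPA and 152000 to 206000 CPM at 5 DPA, so the 1 DPA libraries all lay below CTRL. The 6 endothelial markers summed to 808 to 977 CPM in CTRL, 635 to 691 CPM at 1 DPA, 841 to 916 CPM at 3 DPA and 932 to 1070 CPM at 5 DPA, and the mitochondrial share of counts was 2.32% to 2.64%, 1.61% to 1.76%, 2.01% to 2.35% and 1.98% to 2.12% in the same order. Both were lowest at 1 DPA. The 3 alpha cell markers summed to 19900 to 25700 CPM in CTRL, 14700 to 23200 CPM at 1 DPA, 29300 to 44300 CPM at 3 DPA and 19800 to 33100 CPM at 5 DPA. For the 3 delta and PP cell markers it was 7390 to 10800, 6700 to 8610, 10700 to 13400 and 11400 to 12700 CPM in the same order. Alpha markers at 3 DPA and delta and PP markers at 5 DPA were above CTRL in every library. The 9 acinar markers ranged widely, from 9710 to 64900 CPM in CTRL, 4800 to 47300 CPM at 1 DPA, 4120 to 11800 CPM at 3 DPA and 7340 to 28500 CPM at 5 DPA. The summed level of 10 macrophage markers ran from 142 to 590 CPM in CTRL, from 104 to 127 CPM at 1 DPA, from 228 to 393 CPM at 3 DPA and from 646 to 895 CPM at 5 DPA, and none of the 10 was at 0 in any library. The 8 stromal markers summed to between 618 and 2050 CPM in CTRL, 650 and 798 CPM at 1 DPA, 1370 and 2060 CPM at 3 DPA and 3000 and 4960 CPM at 5 DPA, again with none at 0. CTRL replicate 3 stood apart, with the lowest macrophage and stromal levels of the CTRL libraries. With that library left out, 17 members were called higher and 7 lower at 1 DPA, 14 and 0 at 3 DPA, and 2 and 0 at 5 DPA. The part of these cell types and of the mitochondrial share in the results below was not tested, and in bulk RNA fewer cells of a type cannot be told apart from less RNA per cell.

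A member was called where edgeR's quasi-likelihood test, adjusted over all genes tested, gave p under 0.05. At 1 DPA 17 of the 36 members were higher than in CTRL and 7 were lower, or 66.7% called, beside 51.6% of all genes tested (29.2% higher and 22.4% lower). At 3 DPA 12 were higher and 1 was lower, or 36.1%, beside 12.6% of all genes (10.2% higher and 2.37% lower). At 5 DPA 6 were higher and 1 was lower, or 19.4%, beside 8.54% of all genes (5.87% higher and 2.67% lower). The members' median log2 fold change was 0.25, 0.25 and 0.22 at 1, 3 and 5 DPA, against −0.05, −0.01 and 0.01 for all genes tested. All 3 libraries lay above all 3 CTRL libraries for 16 members at 1 DPA, 16 at 3 DPA and 11 at 5 DPA, beside 31.1%, 17.9% and 16.5% of all genes tested. They lay below for 8, 2 and 4 members, beside 23.5%, 11.1% and 12.2%. These comparisons share the CTRL libraries. As the members were chosen with earlier results of these data known, the shares describe them and do not test an excess over all genes. Over the 4 groups together 26 of the 36 members differed by edgeR's F-test, beside 57.4% of all genes. The counts by role below are to be read beside these same shares of all genes.

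**Figure D1:**
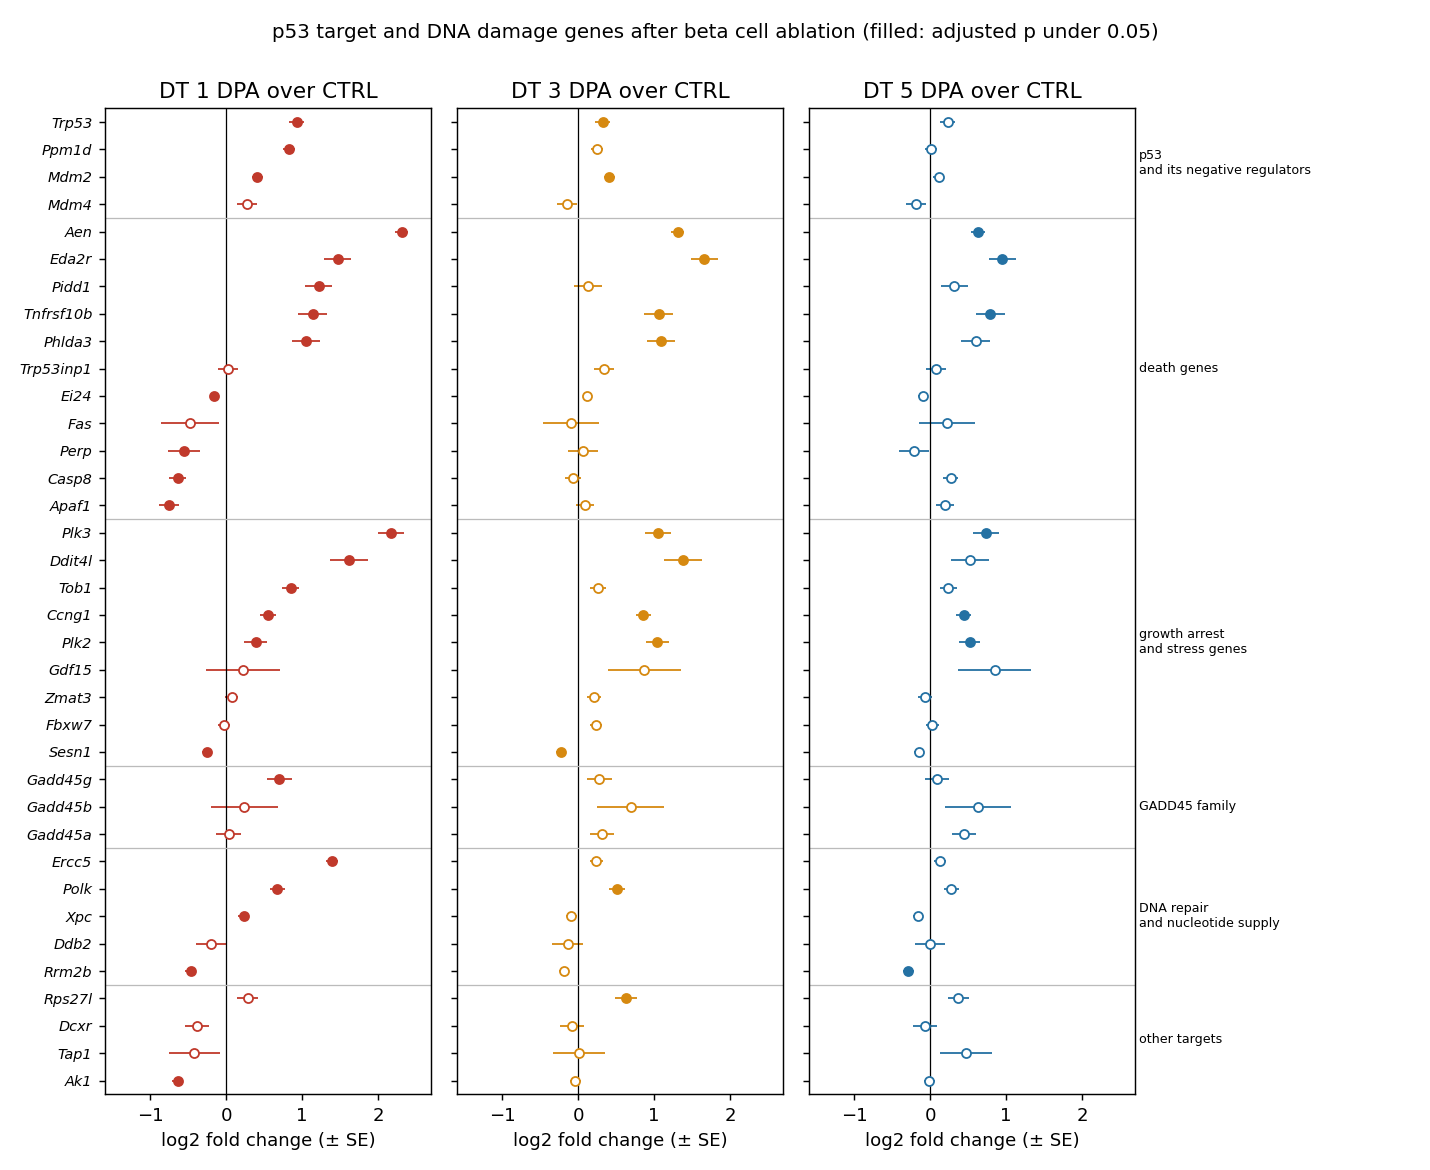
Log2 fold change over CTRL (x axis, with SE) of each of the 36 members (y axis, by role) at 1, 3 and 5 DPA; filled points passed the test at adjusted p under 0.05. Aen has the highest value at 1 DPA, 2.31, and no member was called in opposite directions at different times.

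Over the 3 times, 6 members were higher than CTRL at every one: Aen, Ccng1, Eda2r, Plk2, Plk3 and Tnfrsf10b. Another 5 were higher at 1 and 3 DPA (Ddit4l, Mdm2, Phlda3, Polk and Trp53), and 6 passed the test at 1 DPA alone (Ercc5, Gadd45g, Pidd1, Ppm1d, Tob1 and Xpc). Rps27l was called higher at 3 DPA. Of the members that were lower, Ak1, Apaf1, Casp8, Ei24 and Perp were called at 1 DPA, Sesn1 at 1 and 3 DPA, and Rrm2b at 1 and 5 DPA. The other 11 members were called at none of the 3 times.

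**Figure D2:**
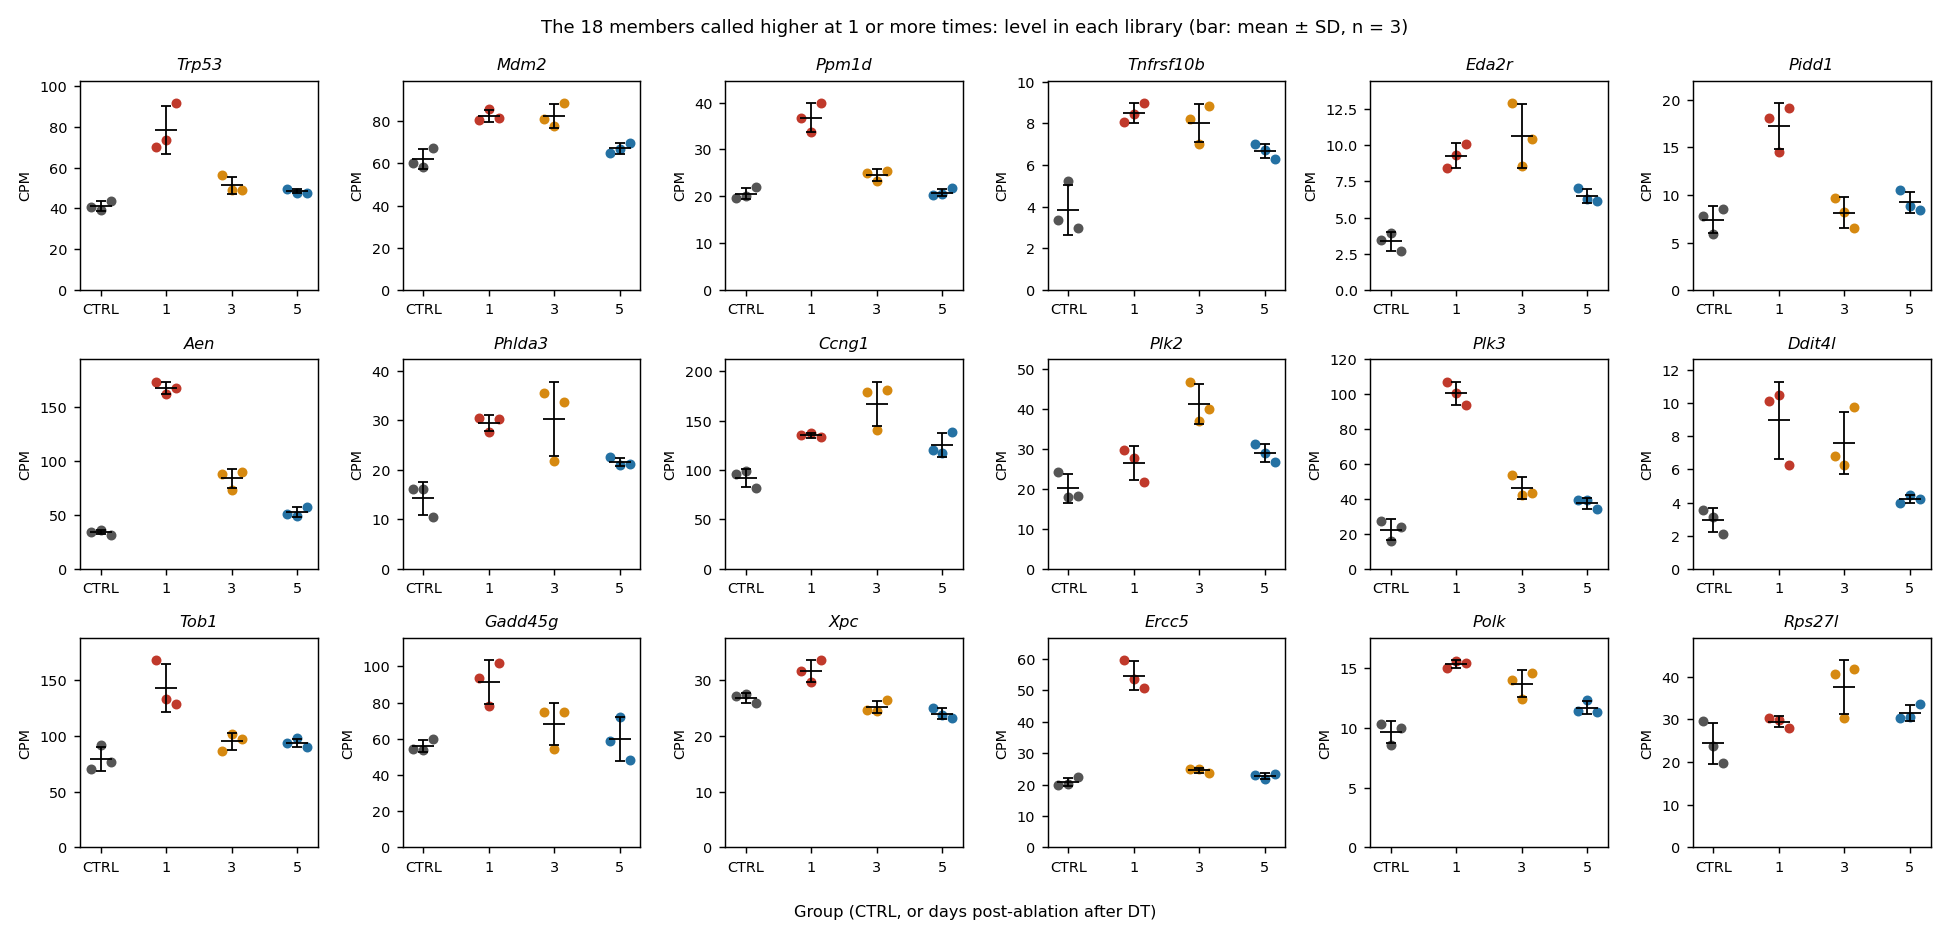
TMM-scaled CPM (y axis) in each library of CTRL and of 1, 3 and 5 DPA (x axis) for the 18 members called higher at 1 or more times; points are libraries and bars are mean ± SD of 3. Aen, Plk3 and Ercc5 are highest at 1 DPA, and Plk2, Ccng1 and Rps27l have their highest mean at 3 DPA.

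Promoter sequence was at hand for 29 of the 36 members, in 40 windows of the RefSeq promoter table (GRCm38.p6, 250 bases before to 50 after a start). The p53 response element is a pair of decamers, and windows were searched on both strands for pairs at most 13 bases apart with at most 2 mismatches in all and the core C and G kept in each decamer. Such a pair was found in 4 of the 40 member windows (10%) and in 1342 of 32851 promoters of the whole table (4.09%). A single decamer without mismatch was found in 12 of the 40 member windows (30.0%) and in 2745 of the 32851 promoters (8.36%). The 4 pairs are shown because they are the members' only pairs, with the decamers in capitals and the gene's strand read 5′ to 3′:
Ccng1: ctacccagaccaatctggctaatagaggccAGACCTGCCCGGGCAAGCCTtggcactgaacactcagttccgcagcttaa
Sesn1: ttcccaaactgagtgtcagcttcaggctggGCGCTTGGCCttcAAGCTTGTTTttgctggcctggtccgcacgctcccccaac
Gadd45a: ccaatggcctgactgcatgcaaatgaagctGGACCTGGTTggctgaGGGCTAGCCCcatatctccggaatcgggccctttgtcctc
Rps27l: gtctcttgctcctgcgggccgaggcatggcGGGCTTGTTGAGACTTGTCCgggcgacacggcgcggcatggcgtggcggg
The Ccng1 stretch lies upstream of the gene at chr11:40755432-40755511 (minus strand) and has 1 mismatch. The Sesn1 stretch, at chr10:41887223-41887305 (plus strand), lies in an intron of the gene before a second RefSeq start and has 2 mismatches. The Gadd45a stretch, at chr6:67037408-67037493 (minus strand), has 2 mismatches and overlaps an exon of a Gadd45a transcript and the opposite-strand gene E230016M11Rik. The Rps27l stretch, at chr9:66946266-66946345 (plus strand), lies inside the gene outside its annotated exons and has 1 mismatch. A match is a description of letters and not a bound site: of these 4 genes, Ccng1 was called higher at all 3 times and Rps27l at 3 DPA, Sesn1 was called lower, and Gadd45a was not called against CTRL. Elements outside these windows, where many p53 sites lie, were not examined.

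Of the 4 genes for p53 itself and its negative regulators, 3 rose at 1 DPA and 2 at 3 DPA, and none was called at 5 DPA. Trp53 (chr11:69580359-69591873 in mm10) had 40.6, 39.3 and 43.8 CPM in CTRL, 70.0, 73.5 and 91.6 CPM at 1 DPA, 56.2, 49.1 and 49.0 CPM at 3 DPA, and 49.5, 47.8 and 47.7 CPM at 5 DPA. Every DT library lay above every CTRL library, with the 1 DPA libraries highest. The log2 fold change over CTRL was 0.93 ± 0.10 at 1 DPA (SE, adjusted p = 1.01e-05), 0.32 ± 0.10 at 3 DPA (adjusted p = 0.0494) and 0.23 ± 0.10 at 5 DPA (adjusted p = 0.163). The 3 DPA call ended under 14 of 18 other settings, among them the omission of any 1 library of 3 or 5 DPA, of library 1 or 2 of CTRL, or of library 2 of 1 DPA (adjusted p 0.0588 to 0.286).

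Mdm2 (chr10:117688875-117710758), the ubiquitin ligase that degrades p53, had 60.4, 58.3 and 67.4 CPM in CTRL, 80.7, 85.7 and 81.3 CPM at 1 DPA, 80.8, 77.8 and 88.6 CPM at 3 DPA, and 64.9, 66.8 and 69.8 CPM at 5 DPA. The 1 and 3 DPA libraries all lay above CTRL and the 5 DPA libraries overlapped it. Its log2 fold change was 0.41 ± 0.07 at both 1 DPA (adjusted p = 0.000358) and 3 DPA (adjusted p = 0.00171), and 0.11 ± 0.07 at 5 DPA (adjusted p = 0.338). Ppm1d (chr11:85311244-85347066), the phosphatase WIP1 that removes activating phosphates from p53 and the damage kinases, had 19.7, 20.1 and 22.0 CPM in CTRL, 36.6, 33.8 and 39.9 CPM at 1 DPA, 24.9, 23.2 and 25.5 CPM at 3 DPA, and 20.2, 20.5 and 21.7 CPM at 5 DPA. Its 1 DPA libraries stood well above all others. The log2 fold change was 0.83 ± 0.08 at 1 DPA (adjusted p = 4.53e-06) and 0.25 ± 0.08 at 3 DPA (adjusted p = 0.0555). Mdm4, which binds p53 and masks its activation domain, was not called against CTRL, at 0.27 ± 0.13 on the log2 scale at 1 DPA (adjusted p = 0.099).

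The 11 death genes split at 1 DPA: 5 rose and 4 fell, where 29.2% of all genes tested rose and 22.4% fell. At 3 DPA 4 were higher and at 5 DPA 3 were higher; none was lower, also at an unadjusted p under 0.05. Aen (chr7:78895854-78911209), a nuclease that takes part in p53-dependent apoptosis, had 34.1, 35.6 and 31.7 CPM in CTRL, 173, 162 and 167 CPM at 1 DPA, 88.0, 73.1 and 89.5 CPM at 3 DPA, and 50.9, 49.0 and 57.4 CPM at 5 DPA. The 4 groups did not overlap. Aen was 4.95-fold higher at 1 DPA (log2 fold change 2.31 ± 0.09, adjusted p = 3.88e-08), 2.47-fold at 3 DPA (1.31 ± 0.09, adjusted p = 5.11e-06) and 1.55-fold at 5 DPA (0.63 ± 0.09, adjusted p = 0.002).

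Both genes for receptors of the tumour necrosis factor family that moved stayed higher throughout. Eda2r (chrX:97333840-97377216), a receptor of the tumour necrosis factor family, had 3.48, 3.91 and 2.68 CPM in CTRL, 8.39, 9.34 and 10.1 CPM at 1 DPA, 12.9, 8.57 and 10.4 CPM at 3 DPA, and 7.05, 6.29 and 6.12 CPM at 5 DPA. Every DT library lay above every CTRL library. Its log2 fold change was 1.47 ± 0.18 at 1 DPA (adjusted p = 3.32e-05), 1.66 ± 0.18 at 3 DPA (adjusted p = 8.62e-05) and 0.95 ± 0.18 at 5 DPA (adjusted p = 0.00933). Tnfrsf10b (chr14:69767472-69784411), the mouse receptor for the death ligand TRAIL, had 3.38, 5.21 and 2.97 CPM in CTRL, 8.06, 8.44 and 8.97 CPM at 1 DPA, 8.21, 7.01 and 8.82 CPM at 3 DPA, and 6.99, 6.74 and 6.29 CPM at 5 DPA. Its DT libraries too were all above CTRL. The log2 fold change was 1.14 ± 0.19 (adjusted p = 0.000348), 1.06 ± 0.19 (adjusted p = 0.00258) and 0.79 ± 0.19 (adjusted p = 0.0254) at 1, 3 and 5 DPA. The 5 DPA call of Tnfrsf10b ended with only the 2 groups in the fit, and on omission of library 1 or 3 of CTRL or of any 1 library of 5 DPA (adjusted p 0.0523 to 0.12). Fas, the best known death receptor, was between 1.62 and 4.74 CPM in all libraries and was not called.

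Pidd1 (chr7:141438113-141444025), which assembles a caspase-2 complex, had 7.82, 5.88 and 8.56 CPM in CTRL, 18.1, 14.5 and 19.1 CPM at 1 DPA, 9.71, 8.17 and 6.49 CPM at 3 DPA, and 10.5, 8.86 and 8.38 CPM at 5 DPA. The rise was seen at 1 DPA (log2 fold change 1.22 ± 0.18, adjusted p = 0.000171), and the later groups overlapped CTRL. Phlda3, an inhibitor of AKT signalling, was 2.07-fold higher at 1 DPA (adjusted p = 0.000922) and 2.13-fold at 3 DPA (adjusted p = 0.00295). The 3 DPA call of Phlda3 ended with only the 2 groups in the fit (adjusted p = 0.0518). Trp53inp1, a stress protein that promotes p53 activity, was not called.

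The members that fell at 1 DPA, 19.4% of the 36 beside 22.4% of all genes tested, include core parts of the death machinery. Apaf1, the scaffold of the apoptosome, lay between 7.32 and 8.89 CPM at 1 DPA, against 12.4 to 15.9 CPM in CTRL, a log2 fold change of −0.76 ± 0.13 (adjusted p = 0.000364). Casp8, the caspase that death receptors activate, lay between 8.05 and 9.35 CPM at 1 DPA, against 12.6 to 15 CPM in CTRL (−0.64 ± 0.11, adjusted p = 0.000351). All 3 libraries at 1 DPA were below all 3 CTRL libraries for both genes, and at 3 and 5 DPA neither was called. Perp, a membrane protein of cell junctions that p53 induces, fell by 0.56 (SE 0.21, adjusted p = 0.037) on the log2 scale at 1 DPA, a call that ended on omission of library 2 or 3 of CTRL or of any 1 library of 1 DPA (adjusted p 0.0664 to 0.0868). Ei24, an endoplasmic reticulum protein, fell by 0.16 (SE 0.06, adjusted p = 0.0312), a call that ended with the replicate block and on omission of library 1 or 2 of 1 DPA (adjusted p 0.0504 to 0.0719). The macrophage markers were also low at 1 DPA, at 104 to 127 CPM against 142 to 590 CPM in CTRL, and their part in these falls was not tested.

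**Figure D3:**
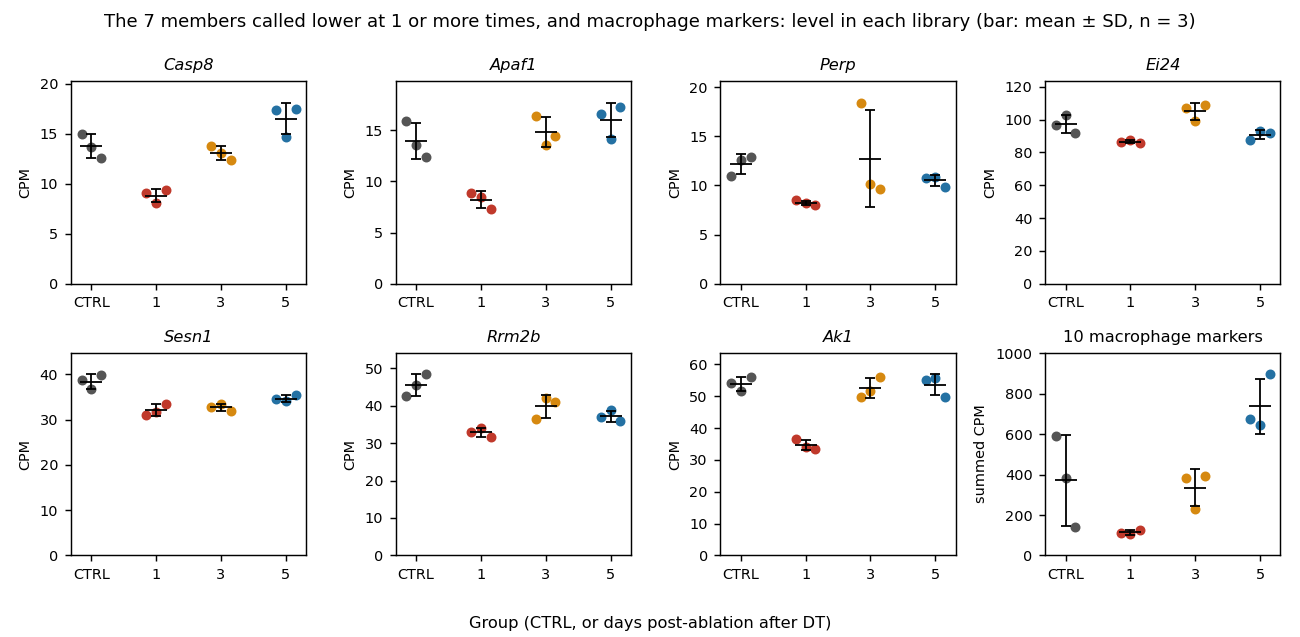
TMM-scaled CPM (y axis) in each library of CTRL and of 1, 3 and 5 DPA (x axis) for the 7 members called lower at 1 or more times, and the summed CPM of 10 macrophage markers; points are libraries and bars are mean ± SD of 3. Apaf1, Casp8 and Ak1 are lowest at 1 DPA, where the macrophage markers lie between 104 and 127 CPM.

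Of the 9 growth arrest and stress genes, 5 rose and 1 fell at 1 DPA, 4 rose and 1 fell at 3 DPA, and 3 rose at 5 DPA. The polo-like kinases Plk3 and Plk2, which answer to stress, were higher at all times with different courses. Plk3 (chr4:117128655-117133963) had 27.6, 15.9 and 23.8 CPM in CTRL, 107, 101 and 93.6 CPM at 1 DPA, 53.8, 42.1 and 43.7 CPM at 3 DPA, and 39.3, 39.2 and 34.0 CPM at 5 DPA. It was highest at 1 DPA, and every DT library exceeded every CTRL library. The log2 fold change was 2.17 ± 0.17 (adjusted p = 2.71e-06), 1.05 ± 0.17 (adjusted p = 0.0018) and 0.74 ± 0.17 (adjusted p = 0.0247) at 1, 3 and 5 DPA, the last of which ended with only the 2 groups in the fit and on omission of library 3 of CTRL or library 1 or 2 of 5 DPA (adjusted p 0.0587 to 0.11). Plk2 was highest at 3 DPA, at 37.0 to 46.8 CPM against 17.9 to 24.3 CPM in CTRL (log2 fold change 1.04 ± 0.15, adjusted p = 0.00055). Its calls at 1 DPA (0.39 ± 0.15, adjusted p = 0.0401) and 5 DPA (0.52 ± 0.14, adjusted p = 0.0468) ended under 10 and 12 of 18 other settings (adjusted p 0.053 to 0.224 and 0.0503 to 0.17), among them leaving out single libraries of each of the 4 groups.

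Ccng1 (chr11:40748552-40755311), cyclin G1, a p53 target that feeds back on the MDM2 pathway and whose promoter match is printed above, had 96.4, 98.8 and 81.8 CPM in CTRL, 135, 138 and 133 CPM at 1 DPA, 179, 141 and 181 CPM at 3 DPA, and 120, 117 and 139 CPM at 5 DPA. All DT libraries were above all CTRL libraries, with the highest mean at 3 DPA. The log2 fold change was 0.55 ± 0.10 (adjusted p = 0.000879), 0.86 ± 0.10 (adjusted p = 0.000204) and 0.44 ± 0.10 (adjusted p = 0.0247) at 1, 3 and 5 DPA, and the 5 DPA call ended with only the 2 groups in the fit and on omission of library 2 or 3 of CTRL or library 1 or 3 of 5 DPA (adjusted p 0.0595 to 0.0861). Ddit4l (chr3:137621612-137628333), an inhibitor of mTOR signalling, had 3.53, 3.14 and 2.11 CPM in CTRL, 10.1, 10.5 and 6.28 CPM at 1 DPA, 6.79, 6.28 and 9.75 CPM at 3 DPA, and 3.99, 4.48 and 4.22 CPM at 5 DPA. All of these DT libraries lay above CTRL, and the test called 1 DPA (1.62 ± 0.25, adjusted p = 0.000211) and 3 DPA (1.38 ± 0.25, adjusted p = 0.00282).

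Tob1 (chr11:94211454-94215495), an antiproliferative protein that recruits the RNA deadenylation machinery, had 70.7, 91.6 and 76.6 CPM in CTRL, 168, 133 and 129 CPM at 1 DPA, 86.6, 102 and 97.0 CPM at 3 DPA, and 93.8, 97.8 and 90.4 CPM at 5 DPA. Only the 1 DPA libraries stood clear of CTRL (log2 fold change 0.85 ± 0.11, adjusted p = 7.61e-05). Sesn1, a leucine sensor that restrains mTOR and the carrier of the second promoter match, was lower at 1 DPA (−0.26 ± 0.06, adjusted p = 0.00266) and at 3 DPA (−0.23 ± 0.06, adjusted p = 0.0194), where the call ended with only the 2 groups in the fit and on omission of library 3 of CTRL or library 3 of 3 DPA (adjusted p 0.0641 to 0.0801). Gdf15, a secreted stress hormone, was at 0.577 to 3.25 CPM in CTRL and was not called, with a log2 fold change of 0.87 ± 0.48 at 3 DPA (adjusted p = 0.3). Zmat3, an RNA-binding p53 target, and Fbxw7, which directs cyclin E to destruction, were not called against CTRL either.

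The GADD45 family, small proteins that bind stress kinases and the replication clamp, did not move as a group. Gadd45g had 54.3, 54.0 and 59.8 CPM in CTRL, 93.7, 78.3 and 102 CPM at 1 DPA, 74.9, 54.6 and 74.6 CPM at 3 DPA, and 58.7, 72.3 and 48.2 CPM at 5 DPA. It was called at 1 DPA (log2 fold change 0.70 ± 0.16, adjusted p = 0.00375), where its libraries were all above CTRL. Gadd45a had 13.2, 13.8 and 14.6 CPM in CTRL, 14.6, 15.8 and 12.1 CPM at 1 DPA, 15.6, 17.8 and 18.1 CPM at 3 DPA, and 22.9, 19.8 and 13.9 CPM at 5 DPA. Its largest log2 fold change, 0.45 ± 0.16 at 5 DPA, was not called (adjusted p = 0.106), and reads of the opposite-strand gene E230016M11Rik could not be told apart if counting ignored strand. Gadd45b had 28.7, 26.4 and 8.47 CPM in CTRL, 28.0, 23.9 and 22.8 CPM at 1 DPA, 35.8, 24.3 and 42.0 CPM at 3 DPA, and 24.0, 24.8 and 49.4 CPM at 5 DPA. The groups overlapped and none was called, with CTRL replicate 3 low.

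Of the 5 genes of DNA repair and nucleotide supply, 3 rose and 1 fell at 1 DPA. Ercc5 (chr1:44147744-44181260), the nuclease XPG that cuts beside bulky lesions, had 19.8, 20.2 and 22.4 CPM in CTRL, 59.5, 53.7 and 50.6 CPM at 1 DPA, 24.9, 24.9 and 23.7 CPM at 3 DPA, and 23.1, 21.8 and 23.5 CPM at 5 DPA. The 1 DPA libraries stood far above the rest, 2.62-fold over CTRL (log2 fold change 1.39 ± 0.08, adjusted p = 1.44e-07). At 3 DPA the log2 fold change was 0.24 ± 0.08 (adjusted p = 0.065). Polk (chr13:96480690-96542579), a polymerase that copies past lesions, had 10.3, 8.59 and 10 CPM in CTRL, 15, 15.6 and 15.4 CPM at 1 DPA, 14.0, 12.4 and 14.6 CPM at 3 DPA, and 11.4, 12.3 and 11.3 CPM at 5 DPA. All DT libraries were above CTRL, and the test called 1 DPA (0.67 ± 0.10, adjusted p = 0.000138) and 3 DPA (0.51 ± 0.10, adjusted p = 0.00452).

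Rrm2b (chr15:37923952-37961318), the p53-inducible subunit of ribonucleotide reductase, moved the other way. It had 42.5, 45.4 and 48.3 CPM in CTRL, 32.9, 34.0 and 31.7 CPM at 1 DPA, 36.4, 42.1 and 40.9 CPM at 3 DPA, and 36.9, 38.8 and 35.9 CPM at 5 DPA. Every DT library was below every CTRL library, and the test called 1 DPA (−0.47 ± 0.07, adjusted p = 0.000211) and 5 DPA (−0.29 ± 0.07, adjusted p = 0.0313). The 5 DPA call ended under 8 settings, among them the omission of library 2 or 3 of CTRL or of any 1 library of 5 DPA (adjusted p 0.0503 to 0.113). Xpc, which detects distorted DNA, had 27.2, 27.6 and 25.9 CPM in CTRL, 31.7, 29.7 and 33.6 CPM at 1 DPA, 24.7, 24.5 and 26.4 CPM at 3 DPA, and 25.1, 23.8 and 23.2 CPM at 5 DPA. Its 1 DPA call (0.23 ± 0.07, adjusted p = 0.013) ended under 6 settings, among them the omission of library 1 or 2 of CTRL, library 3 of 1 DPA or library 1 of 3 DPA (adjusted p 0.0586 to 0.196). Ddb2, its partner in lesion recognition, was not called, and overlaps the opposite-strand gene Acp2.

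Among the other 4 targets, Ak1 (chr2:32621758-32635058), adenylate kinase 1, had 54.2, 51.7 and 56.1 CPM in CTRL, 36.5, 34.0 and 33.5 CPM at 1 DPA, 49.8, 51.8 and 56.1 CPM at 3 DPA, and 55.0, 55.9 and 49.8 CPM at 5 DPA. The 1 DPA libraries were below all others (−0.64 ± 0.07, adjusted p = 1.22e-05). Rps27l (chr9:66946086-66949516), a ribosomal protein S27 relative with a promoter match above, had 29.5, 23.7 and 19.8 CPM in CTRL, 30.4, 29.9 and 27.9 CPM at 1 DPA, 40.5, 30.4 and 41.8 CPM at 3 DPA, and 30.3, 30.5 and 33.6 CPM at 5 DPA. The 3 DPA libraries were all above CTRL (0.63 ± 0.14, adjusted p = 0.0119). That call ended with only the 2 groups in the fit and on omission of library 2 of CTRL or library 1 or 3 of 3 DPA (adjusted p 0.0525 to 0.0977), and reads may be split with Rps27, which it resembles. Dcxr and Tap1 were not called against CTRL.

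The times were also set against each other. Between 3 and 1 DPA 9 members were higher at 3 DPA and 9 were lower, beside 45.1% of all genes tested (20.4% higher and 24.7% lower). With library sizes that left out the 50 most abundant genes, and without TMM scaling, 13 members were higher and 8 lower. Over all genes 4927 were then higher and 3316 lower, in place of 3534 and 4274. The lower ones include Ercc5 (log2 difference −1.16, adjusted p = 1.44e-06), Plk3 (−1.11, adjusted p = 0.000357), Pidd1 (−1.08, adjusted p = 0.000554) and Aen (−1.0, adjusted p = 6.12e-06). Apaf1 (0.85, adjusted p = 0.000248), Plk2 (0.64, adjusted p = 0.00379) and Ak1 (0.60, adjusted p = 3.74e-05) are among the higher ones.

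Between 5 and 1 DPA 5 members were higher at 5 DPA and 14 were lower, beside 56.1% of all genes (26.3% higher and 29.8% lower). With the 50 most abundant genes left out of library sizes, and without TMM scaling, the balance turned, to 11 members higher and 10 lower. Over all genes the balance turned to 6111 higher and 3933 lower, in place of 4551 and 5152. All 4 genes of p53 and its negative regulators were lower at 5 DPA, Ppm1d by a log2 difference of −0.82 (adjusted p = 6.49e-06) and Trp53 by −0.70 (adjusted p = 8.92e-05). The calls of Mdm2 and Mdm4 ended when library sizes left out the 50 most abundant genes and TMM scaling was not used. Casp8 (0.91, adjusted p = 2.71e-05) and Apaf1 (0.96, adjusted p = 6.89e-05) were higher at 5 DPA, when the macrophage markers were at 646 to 895 CPM, against 104 to 127 CPM at 1 DPA. That relation was not tested.

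Between 5 and 3 DPA 3 members were lower at 5 DPA and 0 were higher, beside 3.17% of all genes (0.711% higher and 2.46% lower). Aen was lower by a log2 difference of −0.67 (adjusted p = 0.00495), a call that held under all 18 other settings. Eda2r (−0.71, adjusted p = 0.0491) and Mdm2 (−0.30, adjusted p = 0.0409) lost their calls under 14 and 13 of them, leaving out any 1 of the 5 DPA libraries included. The replicate block treats same-number libraries as pairs, which the labels do not state. With it Eda2r lost its call (adjusted p = 0.0844), Mdm2 kept it (adjusted p = 0.0469) and Plk2 was called lower (adjusted p = 0.0358). At an unadjusted p under 0.05 edgeR had 1 member higher and 12 lower, beside 1132 and 1897 of the 17294 genes tested. DESeq2's adjusted test called 1 member higher and 7 lower, beside 416 and 761 of all genes.

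Of 23 other p53 targets that could be tested, 6 rose and 6 fell at 1 DPA (26.1% each), beside 29.2% and 22.4% of all genes tested. The share that rose at 1 DPA was thus not above that of all genes. At 3 DPA 3 rose and 0 fell (2 were lower at an unadjusted p under 0.05), beside 10.2% and 2.37% of all genes. At 5 DPA 3 rose and 1 fell, beside 5.87% and 2.67%. None of the 6 that fell at 1 DPA is named below, as genes are named here mainly by smallest adjusted p. Cdkn1a, the cell cycle inhibitor p21, had a log2 fold change over CTRL of 1.34 ± 0.25 (adjusted p = 0.00149), 2.93 ± 0.27 (adjusted p = 7.64e-05) and 1.81 ± 0.26 (adjusted p = 0.00413) at 1, 3 and 5 DPA. Bax, which opens the mitochondrial outer membrane, was likewise highest at 3 DPA, at 1.09 ± 0.14 (adjusted p = 6.06e-05), 1.65 ± 0.14 (adjusted p = 2.55e-05) and 0.85 ± 0.14 (adjusted p = 0.00557) at 1, 3 and 5 DPA. Bbc3, the killer protein PUMA, was called at 1 DPA (1.44 ± 0.14, adjusted p = 7.31e-06), as was Traf4, a signalling adaptor (1.37 ± 0.09, adjusted p = 4.01e-07). Lif, a secreted cytokine, was higher at all 3 times, by 2.09 ± 0.32 (adjusted p = 0.000187) at 1 DPA, 1.95 (adjusted p = 0.00137) at 3 DPA and 1.56 (adjusted p = 0.0129) at 5 DPA, the last call ending with only the 2 groups in the fit. The gene that fell at 5 DPA was Cyfip2, a regulator of actin (−0.32, adjusted p = 0.0237), a call lost on omission of library 2 or 3 of CTRL or library 1 or 2 of 5 DPA.

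Of 20 genes that sense damage or repair breaks, 6 rose and 8 fell at 1 DPA, beside 29.2% and 22.4% of all genes tested. At 3 DPA 2 rose and 2 fell, beside 10.2% and 2.37% of all genes. At 5 DPA 4 rose and 2 fell, beside 5.87% and 2.67%. The shares that rose at 1 and 3 DPA were thus close to those of all genes, and the other shares were larger. As this list was also chosen with earlier results known, its shares do not test an excess. Trp53bp1, which marks broken ends, had a log2 fold change of 1.33 ± 0.08 at 1 DPA (adjusted p = 1.66e-07), and it overlaps the opposite-strand gene Tubgcp4. Nbn, which holds ATM at breaks, was at 0.48 at 1 DPA (adjusted p = 9.17e-05) and 0.23 at 3 DPA (adjusted p = 0.0425), where the call ended under 16 of 18 other settings, the omission of any 1 library of CTRL, 1 DPA or 3 DPA included. Lig4, the ligase that joins broken ends, named after its values were seen, lost its 1 DPA call (0.41 ± 0.15, adjusted p = 0.0399) under 12 of them, the omission of any 1 library of 1 or 5 DPA included. Atm, the kinase that responds to breaks, was lower at all 3 times, at −0.44 ± 0.10 (adjusted p = 0.00386), −0.58 (adjusted p = 0.00253) and −0.57 (adjusted p = 0.00766). Prkdc was also lower, at −0.54 ± 0.11 (adjusted p = 0.00131), −0.39 (adjusted p = 0.0302) and −0.43 (adjusted p = 0.031). Its later calls ended on omission of library 2 or 3 of CTRL, library 1 or 3 of 3 DPA or library 1 or 2 of 5 DPA (adjusted p up to 0.0957 at 3 DPA and 0.132 at 5 DPA). Both later calls of Prkdc also ended with only the 2 groups in the fit. Chek1, a kinase of the replication checkpoint, was higher at 1.53 ± 0.23 (adjusted p = 0.000148), 1.04 (adjusted p = 0.00879) and 1.07 ± 0.22 (adjusted p = 0.0157), with the later calls ending on omission of library 1 of 3 DPA (adjusted p = 0.057) or library 1 of 5 DPA (adjusted p = 0.069). Topbp1, an activator of the kinase ATR, was lower at 1 DPA (−0.70 ± 0.09, adjusted p = 5.39e-05) and higher at 5 DPA (0.42, adjusted p = 0.0157), where the call ended with only the 2 groups in the fit and on omission of library 2 of CTRL or library 1 of 5 DPA.

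**Figure D4:**
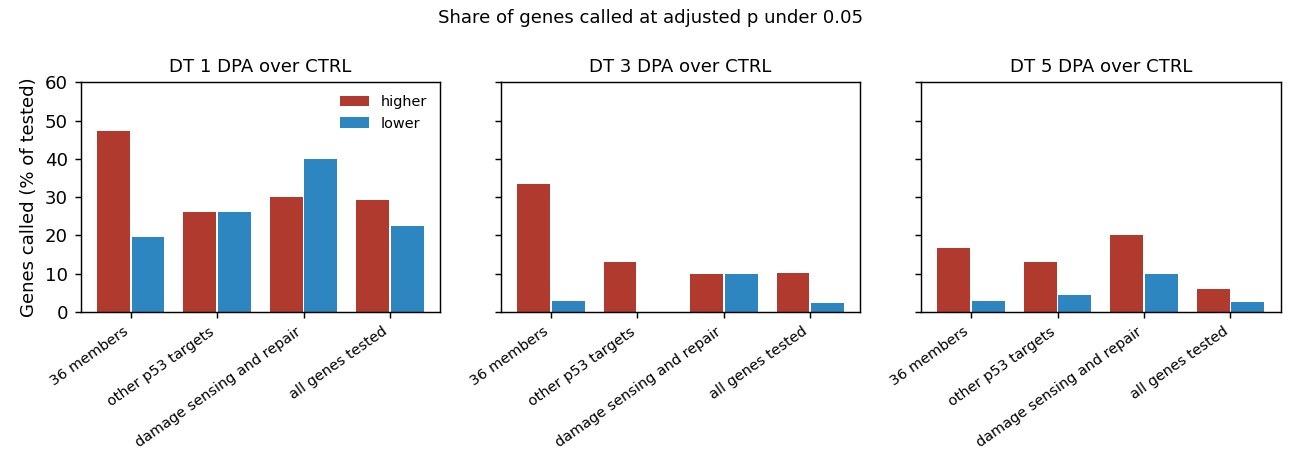
Share of genes called higher or lower over CTRL (y axis, percent of genes tested, adjusted p under 0.05) at 1, 3 and 5 DPA for the 36 members, other p53 targets, damage sensing and repair genes, and all genes tested (x axis). The members' share called higher is 47.2%, 33.3% and 16.7% at 1, 3 and 5 DPA, beside 29.2%, 10.2% and 5.87% of all genes tested. The members and lists were chosen with earlier results of these data known.

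Levels of different genes were compared per length, in TPM, the deposited unit that divides by gene length. In CTRL, Gadd45g was the most abundant member at 104 ± 11.1 TPM (SD, n = 3), followed by Tob1 at 75.0 TPM and Rps27l at 64.5 TPM. The least abundant were Ddit4l at 2.17 TPM, Gdf15 at 2.12 TPM and Eda2r at 1.23 TPM. The summed level of the 36 members, in TMM-scaled CPM, was 1130 to 1160 in CTRL, 1590 to 1660 at 1 DPA, 1350 to 1530 at 3 DPA and 1250 to 1330 at 5 DPA. A few genes weigh heavily in this sum, so it does not describe each member. Mean CPM in CTRL and at 1 DPA was 33.8 and 167 for Aen, 22.5 and 101 for Plk3, and 79.6 and 143 for Tob1. At 1 DPA 17 members were called higher and 7 lower.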

How the data were processed

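Per the file headers, the authors deposited a table of whole-number read counts and TPM values of each gene in each library. Per the labels' protocols, RNeasy Mini columns gave the RNA and a QIAseq stranded mRNA kit the libraries. The build named in the submitters' processing notes is mm10. As for aligner, counter, annotation release and strand setting, each is not given in the sources used here. In all, 12 count and 12 TPM columns were used and 24 other per-sample columns were not used.

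With filterByExpr at a minimum count of 10, 17294 of 48709 genes were kept. After TMM scaling, edgeR's quasi-likelihood test was fitted over all 12 libraries, with 1 mean per group. Calls needed a p under 0.05 after Benjamini-Hochberg adjustment over all genes tested. Standard errors came from the F statistic. The software was edgeR 4.0.16 and DESeq2 1.42.0 with limma 3.58.1 in R 4.3.3, and Python 3.11.15 with matplotlib 3.10.9. Coordinates came from GENCODE M21, where 48349 identifiers matched. The fit was tested on simulated counts. In each comparison with CTRL 98 to 100 genes were changed each way, among 17002 to 17093. Fewer were changed there than were called in the real data, where recovery may differ. Of genes changed by 1 or −1 on the log2 scale, 58% to 65% were recovered, with 5 to 9 false calls among 129. A gene that was not called may thus still have changed.

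The members and lists were chosen with earlier results of these data known. Per role, every library's value is given for up to 4 called members of smallest adjusted p whose libraries do not overlap CTRL, and always for Trp53, Mdm2 and the GADD45 family. Outside the members, up to 3 genes of smallest adjusted p per list and comparison are named, and Cdkn1a, Bax, Bbc3 and Prkdc always. In the motif search, the demand for the core C and G was added after the design.

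No 2 replicates agreed within sampling noise. Same-number 3 and 5 DPA libraries deviated together (correlations 0.156 to 0.326, all above 0.1), which same-number libraries of no other pair of groups did. Other ways of matching the libraries were not tried, so these correlations cannot show that the numbers pair. Treating those numbers as pairs is a choice, made with the calls of earlier fits known. The other settings were DESeq2, RLE scaling, no filter, library sizes that leave out the 50 most abundant genes, a fit of only the 2 groups, a replicate block over all 12 libraries, and the omission of each library in turn. The setting without the 50 most abundant genes also used no TMM scaling, so its shifts cannot be assigned to those genes alone.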

Additional observations from a re-analysis of the deposited data

Results flagged for a closer look

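For 5 members the effects over CTRL at different times lay on opposite sides of 0, at least 1 of them was called, and the difference between the times passed edgeR's test. The log2 difference between 3 and 1 DPA was 0.85 for Apaf1 (0.09 over CTRL at 3 DPA and −0.76 at 1 DPA, adjusted p of the difference 0.000248), 0.63 for Perp (0.06 and −0.56, adjusted p = 0.0259), 0.28 for Ei24 (0.12 and −0.16, adjusted p = 0.00204) and −0.33 for Xpc (−0.09 and 0.23, adjusted p = 0.00226). Between 5 and 1 DPA it was 0.91 for Casp8 (0.27 over CTRL at 5 DPA and −0.64 at 1 DPA, adjusted p = 2.71e-05), 0.96 for Apaf1 (0.20 and −0.76, adjusted p = 6.89e-05) and −0.40 for Xpc (−0.16 and 0.23, adjusted p = 0.000453). In each of these the effect at the later time was not called. The Perp difference lost its call with only the 2 groups in the fit and without any 1 of the 1 DPA libraries or 3 DPA replicate 1, whose 18.4 CPM stood above 10.1 and 9.63 CPM in the other 3 DPA libraries.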

How the results depend on the processing

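No member called in the main comparisons changed direction under any of the 18 other settings; for members called by neither fit the direction was not compared. Of the calls against CTRL, 20 of 24 at 1 DPA, 9 of 13 at 3 DPA and 2 of 7 at 5 DPA (Aen and Eda2r) held in every setting. The replicate block joins same-number libraries of all 4 groups, though only those of 3 and 5 DPA deviated together. Correlations with CTRL were −0.038 to 0.012 for 1 DPA, −0.294 to 0.065 for 3 DPA and −0.465 to −0.108 for 5 DPA. The block's calls against CTRL or 1 DPA thus rest on a pairing that the data do not show. For 5 against 3 DPA they rest on a pairing that was not compared with other ways of matching. Over the whole table the block gave 340 calls, in place of 548, for 5 against 3 DPA. With it 17 members were higher and 6 lower at 1 DPA, 13 and 1 at 3 DPA, and 6 and 1 at 5 DPA. For 5 against 3 DPA 0 were higher and 3 lower, and for 5 against 1 DPA 3 in place of 5 were higher. These are not all the same members: under the block Ppm1d (adjusted p = 0.0336) and Fbxw7 (adjusted p = 0.0383) gained and Trp53 lost a call at 3 DPA (adjusted p = 0.0589), and Plk2 took the place of Eda2r for 5 against 3 DPA. Members lower at 3 DPA numbered 2 with DESeq2 and 0 with only the 2 groups, in place of 1. At 5 DPA, 2 in place of 6 were higher with only the 2 groups, and 0 in place of 1 were lower there, without filtering and without the 50 most abundant genes. For 5 against 3 DPA, DESeq2 gave 1 higher and 7 lower, only the 2 groups gave 5 lower, and RLE scaling, no filter and leaving out the 50 most abundant genes gave 1 each, in place of 3. For 5 against 1 DPA, 11 in place of 5 were higher and 10 in place of 14 lower without the 50 most abundant genes. The cause of these shifts was not tested.

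Leaving out each library in turn gave 15 to 17 members higher and 5 to 8 lower at 1 DPA, 10 to 14 and 0 to 2 at 3 DPA, and 2 to 7 and 0 to 1 at 5 DPA, the 5 DPA count of higher members being 2 on omission of library 3 of CTRL or library 1 of 5 DPA, and 3 on omission of library 2 of 5 DPA. Between times it gave 6 to 11 and 8 to 10 for 3 against 1 DPA, 0 to 0 and 1 to 6 for 5 against 3 DPA, and 3 to 7 and 13 to 15 for 5 against 1 DPA. Over the 4 groups 26 members differed, and 23 to 28 with 1 library left out. Over the whole table it gave 7852 to 9619, 1372 to 2801 and 462 to 2137 calls at 1, 3 and 5 DPA against CTRL, and 6173 to 8634, 31 to 1018 and 8492 to 10202 for 3 against 1, 5 against 3 and 5 against 1 DPA. Whole-table calls at 5 DPA numbered 1477, against 2400 with DESeq2 and 622 with only the 2 groups, and for 5 against 3 DPA 548, against 1177 and 899. Leaving the 50 most abundant genes out of library sizes, with no TMM scaling, put the all-gene median log2 fold change at −0.17 at 1 DPA, in place of −0.05. The share of calls that were higher there became 43.4%, in place of 56.6%. That setting put the same median at 0.15 in place of 0.04 for 3 against 1 DPA and 0.17 in place of 0.01 for 5 against 1 DPA. The shares of calls that were higher became 59.8% in place of 45.3% and 60.8% in place of 46.9% in these 2 comparisons. At 1 DPA 15 members were then higher and 8 lower; the share of calls that were higher was 79.1% in place of 68.8% at 5 DPA, and with DESeq2 67.5% in place of 81.2% at 3 DPA.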
